A study of Homo sapiens with 7 samples.

Results

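Nascent transcription was described for 5 genes that code for receptors and junction proteins of the cell surface: the Eph receptors EPHA2 and EPHB2, the adhesion G protein-coupled receptors ADGRG6 and ADGRL4, and the junction protein CLMP. They are 5 of 2079 protein-coding genes that could be placed in the deposited windows around replication origins, and all 5 were among the 1754 with enough signal to be tested. The genes were listed by name for their body signal and their start-to-body profile, with earlier results of these same libraries in view, so the difference between the groups in any of their values is a description and carries no test.

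All libraries came from RPE1 iCas9 p53/puro-dKO cells, a line of immortalised human retinal pigment epithelium carrying an inducible Cas9 and knockouts named p53 and puro in the label. The line was used as wild type (WT, 3 libraries), with CFAP20 also knocked out (CFAP20-KO, 3 libraries), or as CFAP20-KO cells expressing CFAP20-GFP (rescue, 1 library). Every library was BrU-seq: RNA made during a pulse of 30 min with 2 mM bromouridine was pulled down with an antibody and sequenced, so the signal follows transcription and not the store of finished mRNA. CFAP20 is known as a protein of the ciliary axoneme, and the series was made to ask what it does in transcription and replication. The labels do not say how many knockout clones were used or whether replicates were separate cultures, so the spread between libraries may be technical.

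Eph receptors are receptor tyrosine kinases whose ligands, the ephrins, sit in the membrane of the neighbouring cell. Binding at a cell contact signals into both cells and steers adhesion, repulsion and boundary formation through the actin cytoskeleton. EPHA2 binds mainly ephrin-A ligands and is a common Eph receptor of epithelial cells, while EPHB2 binds mainly ephrin-B ligands and is known from axon guidance and from the ordering of cells in intestinal crypts. Adhesion G protein-coupled receptors carry a long extracellular part that many of them cut themselves, which exposes a tethered agonist. ADGRG6, also called GPR126, is known for its part in myelination by Schwann cells, and ADGRL4, also called ELTD1, for its expression in blood vessel endothelium. CLMP is a transmembrane immunoglobulin protein that is found at tight junctions and whose loss causes congenital short bowel.

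The sequence before 4 of the 5 gene starts was matched in RefSeq (GRCh38.p14) and is shown here because signal on the gene strand before the start set EPHA2 and ADGRG6 apart from EPHB2 and ADGRL4. Each run holds the 250 bases before the RefSeq start, 5′ to 3′ on the strand of the gene. Capitals mark matches, on either strand, to 6 motifs. They are the cyclic AMP response element or CRE, spelled TGACGTCA, and the AP-1 motif of Fos and Jun proteins, spelled TGANTCA. The TEAD motif, bound by the partners of YAP, was searched as GGAATG, and the GC box of Sp factors as GGGCGG. The TATA box of core promoters was searched as TATAAA, and the E-box of factors such as Myc as CACGTG. No match overlaps another in these 4 windows.
EPHA2 before its start, chr1:16156070-16156319, minus strand: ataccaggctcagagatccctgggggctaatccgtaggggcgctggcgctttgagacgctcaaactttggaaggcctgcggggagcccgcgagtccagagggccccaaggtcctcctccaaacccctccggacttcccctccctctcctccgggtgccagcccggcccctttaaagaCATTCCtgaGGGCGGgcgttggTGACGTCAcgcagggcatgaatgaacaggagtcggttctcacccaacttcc
EPHB2 before its start, chr1:22710588-22710837, plus strand: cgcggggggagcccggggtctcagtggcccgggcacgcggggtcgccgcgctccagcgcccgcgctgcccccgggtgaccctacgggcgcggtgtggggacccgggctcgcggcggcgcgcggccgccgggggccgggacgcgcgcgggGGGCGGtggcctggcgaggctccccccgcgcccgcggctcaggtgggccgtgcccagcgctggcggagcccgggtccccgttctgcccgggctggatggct
ADGRG6 before its start, chr6:142301757-142302006, plus strand: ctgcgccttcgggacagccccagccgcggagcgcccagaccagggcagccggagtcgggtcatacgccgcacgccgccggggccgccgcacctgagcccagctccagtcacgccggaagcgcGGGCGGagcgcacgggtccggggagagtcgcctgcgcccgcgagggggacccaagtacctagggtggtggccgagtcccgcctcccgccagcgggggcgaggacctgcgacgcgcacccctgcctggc
ADGRL4 before its start, chr1:79006731-79006980, minus strand: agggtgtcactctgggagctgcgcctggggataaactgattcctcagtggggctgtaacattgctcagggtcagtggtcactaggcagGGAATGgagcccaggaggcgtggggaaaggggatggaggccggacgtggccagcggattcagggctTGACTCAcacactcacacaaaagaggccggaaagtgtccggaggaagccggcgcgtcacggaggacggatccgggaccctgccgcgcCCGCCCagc

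A GC box was found in all 4 windows, and in 42.3% of 27305 RefSeq windows of the same length. EPHA2 held a CRE at -51, counted back from the start, a motif present in 1.77% of the windows, and it also held a TEAD motif at -73. ADGRL4 held an AP-1 motif at -96 (6.6% of windows) and a TEAD motif at -162 (11.9% of windows). EPHB2 and ADGRG6 held the GC box alone. No TATA box (11.1% of windows) or E-box (6.49%) was found in the 4 windows. EPHB2 had the most CpG pairs with 42, followed by ADGRG6 with 34, ADGRL4 with 16 and EPHA2 with 15, where the median window had 11. A match is a string of letters and was not tested as a binding site.

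Further upstream, the bin of 200 bases with the most WT signal is shown for the 2 genes that had such signal, from hg38, with capitals again marking motif matches. Counted from the start, the EPHA2 bin is centred at -532 and the ADGRG6 bin at -706 bases.
EPHA2 upstream bin, chr1:16156502-16156701, minus strand: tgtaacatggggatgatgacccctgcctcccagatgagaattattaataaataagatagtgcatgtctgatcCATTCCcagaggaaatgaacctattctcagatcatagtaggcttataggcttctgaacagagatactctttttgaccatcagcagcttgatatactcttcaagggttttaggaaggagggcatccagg
ADGRG6 upstream bin, chr6:142301202-142301401, plus strand: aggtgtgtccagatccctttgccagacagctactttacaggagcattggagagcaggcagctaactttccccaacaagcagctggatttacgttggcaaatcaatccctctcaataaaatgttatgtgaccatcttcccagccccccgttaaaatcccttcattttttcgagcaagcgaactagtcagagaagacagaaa

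These bins were less rich in G and C than the windows next to the starts. The EPHA2 bin had a GC content of 42% and 0 CpG pairs, against 63.2% in the window at its start. The ADGRG6 bin had 46% and 4 CpG pairs, against 77.6%. The single motif match in the 2 bins was a TEAD motif in that of EPHA2.

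The signal is coverage per 200-bp bin on the gene strand, scaled by the authors, and is given as the mean over bins, so levels are per length and genes can be set side by side. The smallest step of the scale was 0.0733 in the deepest library (WT replicate 2) and 0.393 in the shallowest (CFAP20-KO replicate 1), and the steps in all windows summed to 41727133 and 8544276. A number in the column names of the splice table is shared by some libraries and is called the run here, although no source used here says what it marks. WT and CFAP20-KO replicate 1 shared the first run, WT replicate 2 and the rescue the second, and WT replicate 3 shared the third with CFAP20-KO replicates 2 and 3. Those 2 knockout libraries resembled each other most (r = 0.998 over genes, against at most 0.969 for any other pair). Of 10 retinal pigment epithelium markers 1 could be placed, RLBP1, with a body signal of 0.126 to 0.362 in WT and 0.0166 to 0.109 in CFAP20-KO. These RLBP1 values lie near the lowest mean at which a gene was tested (0.0835). With 1 weak marker the cell type named in the label could not be checked. Of 10 endothelial markers, the cell type for which ADGRL4 is known, none could be placed. The 2 of 6 neuronal markers that could be placed, MAP2 and SYT1, summed to 2.91 to 6.4 and 1.40 to 4.17. ELF3, the 1 placed of 6 markers of other epithelia, was at 0.0511 to 0.509 and 0.0776 to 0.226, and none of 6 haematopoietic markers could be placed. The part of these markers in the results was not tested. CFAP20 itself could not be placed, so the knockout was not checked in these values.

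The 5 genes spanned a wide range of transcription in WT cells. Over the first 30 kb, a stretch all 5 windows cover, the mean WT signal was 68.5 ± 44.6 (SD, n = 3) for EPHA2, the highest of the 5. CLMP followed with 6.04 ± 1.52 (SD, n = 3) and EPHB2 with 3.30 ± 2.02 (SD, n = 3). ADGRL4 had 2.89 ± 1.19 (SD, n = 3) and ADGRG6 1.85 ± 0.344 (SD, n = 3). EPHA2 stood clear of the others, since its lowest WT library (17.8) lay above the highest value of CLMP (7.53). The remaining neighbours in this order overlapped: CLMP ranged from 4.49 to 7.53, EPHB2 from 1.55 to 5.51, ADGRL4 from 1.74 to 4.12 and ADGRG6 from 1.46 to 2.10. In CFAP20-KO libraries the order of the means was the same, with 67.8, 10.7, 7.68, 3.63 and 0.875. Single libraries did not all keep this order. EPHB2 lay above ADGRL4 only in replicate 1 of both groups, the libraries of the first run, where it also lay above CLMP. In replicates 2 and 3 of both groups ADGRL4 was higher, at 4.70 and 5.10 in CFAP20-KO against 4.22 and 3.99 for EPHB2. The EPHB2 mean of 7.68 had an SD of 6.20 (n = 3) and included 14.8 in CFAP20-KO replicate 1. By WT body signal EPHA2 lay at the 98.1 percentile of the 1754 genes, CLMP at 53.5, EPHB2 at 34.8, ADGRL4 at 34.7 and ADGRG6 at 23.1.

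**Figure D1:**
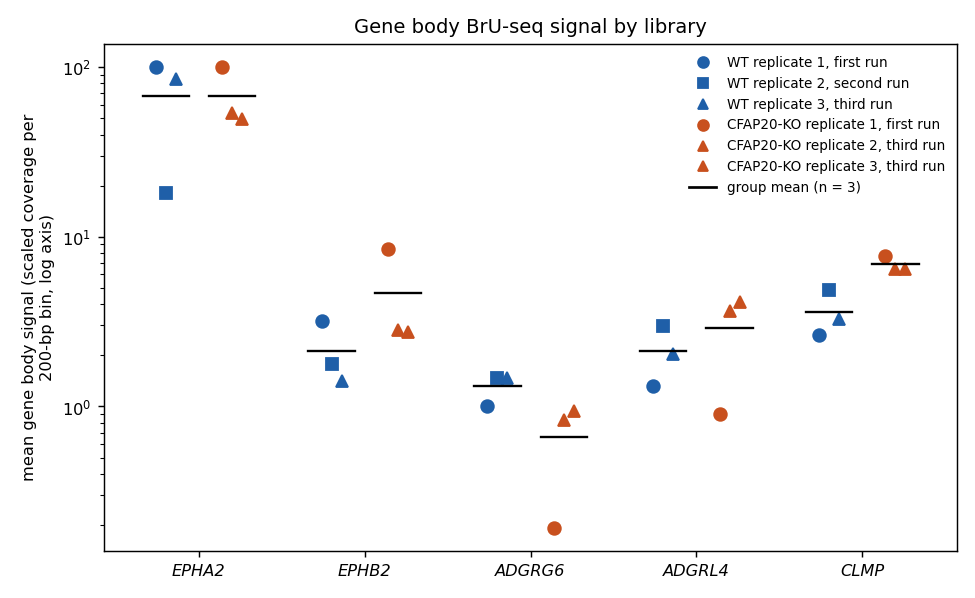
Mean body signal (scaled coverage per 200-bp bin, log axis) of the 5 genes in 3 WT (blue) and 3 CFAP20-KO (orange) libraries. Marker shape gives the run and black lines give group means. CLMP lies higher and ADGRG6 lower in all 3 CFAP20-KO libraries than in any WT library, while EPHA2 ranges from 18.2 to 99.9 within WT.

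The comparison of CFAP20-KO with WT asks how loss of CFAP20 changed transcription along these genes. In body signal, from the start to the end of the gene or of its window, CLMP was higher and ADGRG6 was lower in all 3 CFAP20-KO libraries than in any WT library. EPHB2 had a higher mean in CFAP20-KO with overlapping groups, and the groups of EPHA2 and ADGRL4 overlapped as well, with WT and CFAP20-KO means close to each other next to their spread. So 2 of 5 genes had groups that did not overlap, where 17.6% of all tested genes did (12.8% higher and 4.85% lower). Because the genes were chosen on this contrast, nothing is read from that count. With each library centred on its median gene the split over all genes was 7.24% higher and 9.06% lower, and CLMP and ADGRG6 again had groups that did not overlap. In the planned limma fit of 3 against 3 libraries no gene of the 1754 passed an adjusted p of 0.05 (0 higher and 0 lower), 146 had an unadjusted p under 0.05, and the median change of all genes was 0.17 on the log2 scale. That count depends on the model: with the run as a term 6.39% of genes passed as higher and 4.73% as lower, and 5.47% and 3.88% when replicate numbers were blocked. No call is given for the 5 genes in any of these fits, since they were chosen on this contrast. In a bulk sample, fewer cells that transcribe a gene and less RNA per cell cannot be told apart.

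EPHA2 (chr1:16124337-16156069, minus strand) is the shortest of the 5 and was covered whole, over 31.7 kb. Its body signal was 99.9, 18.2 and 85.1 in WT replicates 1 to 3 and 99.8, 53.3 and 49.2 in CFAP20-KO replicates 1 to 3. WT replicate 2 was by far the lowest and the other WT libraries were among the highest, so the groups overlapped. The change was 0.25 ± 0.65 (SE) on the log2 scale. Leaving out single libraries moved it from -0.53 without WT replicate 2 to 0.70 without WT replicate 1. Within the first run the 2 libraries were level (difference -0.0013), and within the third the difference of CFAP20-KO from WT was -0.73, with both knockout libraries lower. In WT replicate 2, 32 of 1754 genes (1.82%) had a body signal at or under 0.25 of that in both other WT libraries. WT replicate 2 is the only library of the second run with signal over genes, so its level and its run cannot be told apart.

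EPHB2 (chr1:22710839-22921500, plus strand) was covered over its first 78.2 kb. Its body signal was 3.17, 1.78 and 1.41 in WT replicates 1 to 3 and 8.5, 2.81 and 2.75 in CFAP20-KO replicates 1 to 3. CFAP20-KO replicate 1 was the highest, and WT replicate 1 of the same run lay above the other knockout libraries, which is where the groups overlapped. The change was 0.99 ± 0.50 (SE) on the log2 scale, and 0.46 without CFAP20-KO replicate 1. It was 1.40 within the first run and 0.94 within the third, so CFAP20-KO was the higher side in both.

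ADGRG6 (chr6:142302007-142446261, plus strand) was covered over its first 58.5 kb. Its body signal was 1.0, 1.48 and 1.47 in WT replicates 1 to 3 and 0.193, 0.837 and 0.945 in CFAP20-KO replicates 1 to 3. All 3 knockout libraries were lower, and CFAP20-KO replicate 1 lay furthest below the rest. That library is the shallowest, and its value rests on 143 steps of the scale, against 975 to 5883 in the WT libraries. The mean was 2.00 times as high in WT, and the change was -1.11 ± 0.51 (SE) on the log2 scale, with -1.97 in the first run and -0.67 in the third. Without CFAP20-KO replicate 1 it was -0.50.

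ADGRL4 (chr1:78889764-79006730, minus strand) was covered over its first 88.2 kb, the longest stretch of the 5. Its body signal was 1.32, 2.98 and 2.03 in WT replicates 1 to 3 and 0.898, 3.63 and 4.11 in CFAP20-KO replicates 1 to 3. CFAP20-KO replicate 1 was the lowest library and the other knockout libraries were the highest. The change was 0.25 ± 0.58 (SE) on the log2 scale, with -0.52 in the first run and 0.90 in the third. Leaving out single libraries moved it from -0.13 without CFAP20-KO replicate 3 to 0.92 without CFAP20-KO replicate 1. Of all tested genes, 37.5% likewise had opposite directions in these runs.

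CLMP (chr11:123069872-123195248, minus strand) was covered over its first 66.7 kb. Its body signal was 2.64, 4.85 and 3.26 in WT replicates 1 to 3 and 7.71, 6.48 and 6.41 in CFAP20-KO replicates 1 to 3. All 3 knockout libraries were higher than the highest WT library, WT replicate 2. The mean was 1.92 times as high in CFAP20-KO, and the change was 0.96 ± 0.30 (SE) on the log2 scale, with 1.52 in the first run and 0.97 in the third.

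Removing the difference between runs left the direction of 4 of the 5 as it was. With the run as a term in the limma fit the change was 1.2 ± 0.17 (SE) for CLMP, 1.13 ± 0.16 (SE) for EPHB2, -1.23 ± 0.33 (SE) for ADGRG6 and 0.29 ± 0.35 (SE) for ADGRL4. For EPHA2 it was -0.42 ± 0.21 (SE), the opposite sign to the fit without the run. Changes were also taken relative to the median gene of each library, which was higher in CFAP20-KO on average but not in CFAP20-KO replicate 1 against every WT library. Without the run term they were 0.77 for CLMP, 0.80 for EPHB2, -1.30 for ADGRG6, 0.06 for ADGRL4 and 0.06 for EPHA2.

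The shape along the gene was then compared, as the mean signal in segments at growing distance from the start. On the log2 scale the mean CLMP difference between the groups was larger the further the segment lay from its start. From 2 to 10 kb the CLMP signal was 6.99, 10.8 and 12.2 in WT replicates 1 to 3 and 16.8, 16.5 and 15.1 in CFAP20-KO replicates 1 to 3, a ratio of 1.62 between the means. From 50 to 66.7 kb it was 0.802, 1.64 and 0.641 against 3.57, 2.95 and 3.04, a ratio of 3.10. The ratio was 1.87 from 10 to 25 kb and 2.10 from 25 to 50 kb, and in all 4 of these segments the groups did not overlap. In the first 2 kb the CLMP libraries did overlap, with 9.42, 8.79 and 9.07 in WT against 28.0, 9.38 and 10.6 in CFAP20-KO, although each knockout value except that of replicate 2 lay above every WT value. Over all tested genes that cover them, the groups were apart with CFAP20-KO higher in 15.4% of genes from 2 to 10 kb, 17.7% from 10 to 25 kb and 13.6% from 25 to 50 kb. From 50 to 75 kb, a stretch that the CLMP window covers in part, it was 7.53% of 531 genes. The median change of all genes was 0.20, 0.29, 0.31 and 0.20 on the log2 scale in these 4 segments, while that of CLMP was 0.72, 0.95, 1.18 and 1.66.

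Put as a share, 7.59%, 8.42% and 4.90% of the CLMP signal in WT replicates 1 to 3 lay beyond 50 kb, against 11.5%, 11.4% and 11.8% in CFAP20-KO replicates 1 to 3. These groups did not overlap, as in 3.07% of 750 genes in that direction. Beyond 25 kb the CLMP share was 29.7%, 37.3% and 20.8% in WT and 33.5%, 38.7% and 39.7% in CFAP20-KO, and the groups overlapped. A long noncoding RNA gene, ENSG00000254710, is annotated over the first part of CLMP on the opposite strand, and how cleanly strands were separated was not tested. On the strand of CLMP a processed pseudogene, ENSG00000255342, is annotated at chr11:123135923-123136376, within the segment beyond 50 kb. Its part in the signal was not tested.

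**Figure D2:**
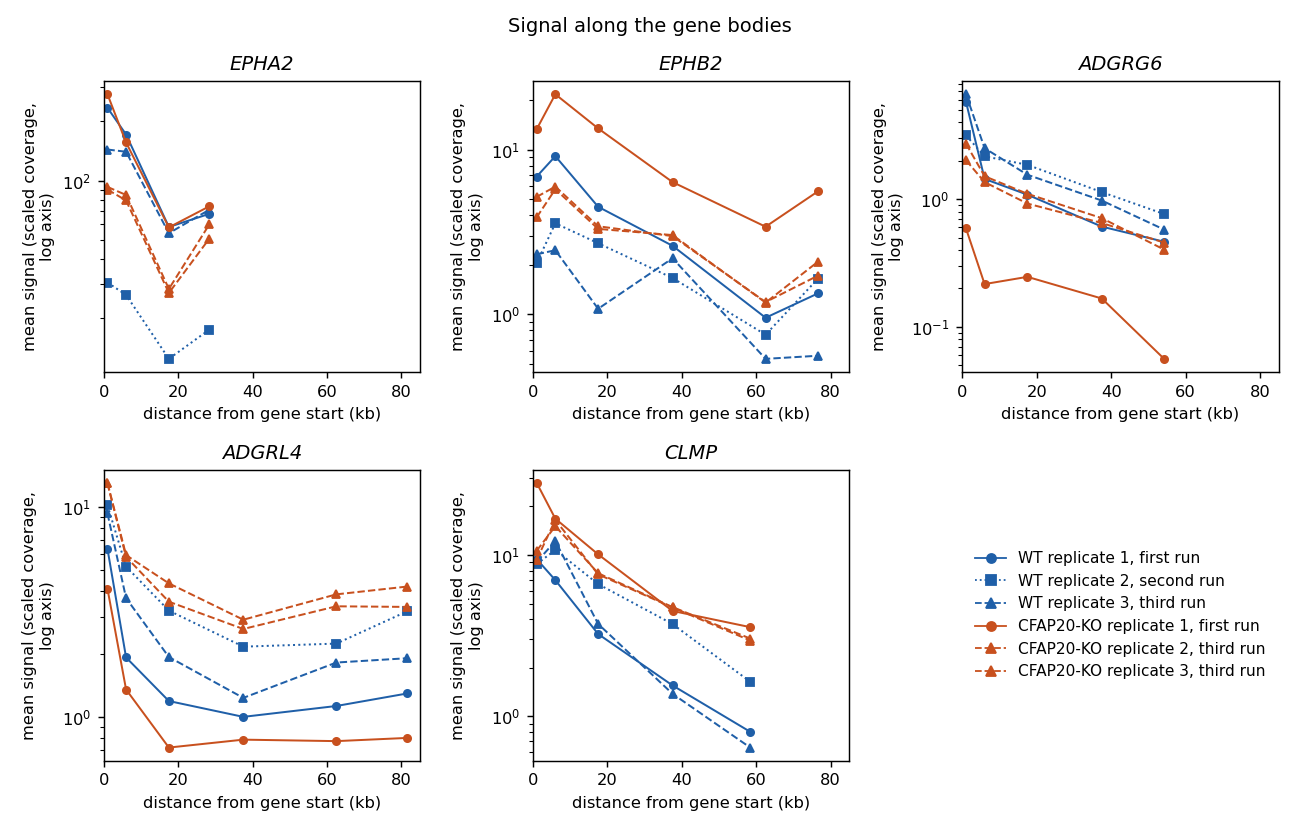
Mean signal (scaled coverage, log axis) in segments along the covered part of each gene, against the distance of the segment midpoint from the gene start in kb. Lines are single libraries, WT in blue and CFAP20-KO in orange, with 1 line style and marker per run. The mean CLMP difference between the groups on the log scale is largest in the last segment. CFAP20-KO replicate 1 lies above the others along EPHB2 and below them along ADGRG6.

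The 2 Eph receptor genes had different shapes. In WT libraries EPHA2 signal was 136 ± 102 (SD, n = 3) in the first 2 kb, 41.6 ± 25.3 (SD, n = 3) from 10 to 25 kb and 52.2 ± 30.1 (SD, n = 3) from there to its end. The CFAP20-KO mean was between 0.91 and 1.18 times the WT mean in all 4 body segments of EPHA2. EPHB2 signal set in downstream of its annotated start: the bin centred 162 bases into the gene was at 0 to 0.560 in the 6 libraries. The highest EPHB2 bin of the first 2 kb was centred at 1562 bases in all 6 libraries. It held 21.6, 5.13 and 6.53 in WT replicates 1 to 3 and 45.6, 17.1 and 10.1 in CFAP20-KO replicates 1 to 3. The EPHB2 groups overlapped up to 25 kb and did not overlap beyond. From 25 to 50 kb the EPHB2 signal was 2.61, 1.66 and 2.19 in WT against 6.36, 2.99 and 3.03 in CFAP20-KO, and from 50 to 75 kb it was 0.953, 0.752 and 0.536 against 3.40, 1.19 and 1.18. In the latter segment the groups were apart with CFAP20-KO higher in 7.53% of genes.

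The 2 adhesion receptor genes also differed from each other. ADGRG6 was lower in CFAP20-KO from the start on. Its first 2 kb held 5.79, 3.15 and 6.63 in WT replicates 1 to 3 and 0.590, 2.02 and 2.72 in CFAP20-KO replicates 1 to 3, with no overlap, as in 7.87% of genes in that direction. Further along ADGRG6 the WT mean was between 1.78 and 1.98 times the CFAP20-KO mean in every segment, and the groups were again apart only from 50 kb to the end of the window at 58.5 kb. Among the 531 genes covered from 50 to 75 kb, which do not include ADGRG6, 3.77% had groups apart in that direction. ADGRL4 kept its signal over a long distance, with a WT mean of 1.47 from 25 to 50 kb and 2.14 from 75 to 88.2 kb. The share of ADGRL4 signal beyond 25 kb was 60.5%, 58.0% and 56.9% in WT replicates 1 to 3 and 62.4%, 60.8% and 61.8% in CFAP20-KO replicates 1 to 3. These shares did not overlap, by a difference of 3.19 percentage points between the means, as in 5.53% of 1122 genes in that direction. Beyond 50 kb the ADGRL4 shares overlapped and the difference was 1.22 points.

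The start-to-body ratio compares the mean signal of the first 2 kb with that of the rest of the body, on the log2 scale. In WT it was highest for ADGRL4 (2.14 ± 0.27, SD, n = 3) and ADGRG6 (2.03 ± 0.82, SD, n = 3), followed by CLMP (1.45 ± 0.52, SD, n = 3), EPHA2 (1.0 ± 0.32, SD, n = 3) and EPHB2 (0.68 ± 0.47, SD, n = 3). The WT ratios of the 2 adhesion receptor genes differed by less than their spread. For EPHB2 the first 2 kb include the stretch of near-empty bins before its signal set in. For none of the 5 (0 of 5) were the groups apart, where 8.24% of 1589 genes had groups that did not overlap. The difference of CFAP20-KO from WT was -0.64 ± 0.49 (SE) for ADGRG6, -0.36 ± 0.47 (SE) for CLMP, -0.20 ± 0.46 (SE) for ADGRL4, 0.16 ± 0.40 (SE) for EPHA2 and 0.0034 ± 0.38 (SE) for EPHB2. Leaving out single libraries moved the difference of ADGRG6 from -0.31 without WT replicate 1 to -1.10 without WT replicate 2. That of CLMP moved from -0.086 without CFAP20-KO replicate 2 to -0.80 without CFAP20-KO replicate 1, and that of ADGRL4 from -0.089 without CFAP20-KO replicate 3 to -0.36 without WT replicate 2. The differences of EPHA2 and EPHB2 changed sign, to -0.085 without CFAP20-KO replicate 1 and -0.23 without WT replicate 2. Single libraries thus moved each of the 5 differences by more than 1.5 times. The median of all genes was -0.26. In limma 0 genes were higher and 0 lower, with 40 at an unadjusted p under 0.05, and with the replicate number as a block 2 were higher (0.126%) and 3 lower (0.189%). With the run as a term 0.692% were higher and 17.9% lower.

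Signal on the gene strand before the start was where EPHA2 and ADGRG6 differed most between the groups. This region was added after the bins had been seen, so its choice rests on these values. In EPHA2 the mean signal over the 1 kb before the start was 5.52, 1.88 and 8.14 in WT replicates 1 to 3 and 0.708, 0.480 and 0.684 in CFAP20-KO replicates 1 to 3. All 3 knockout libraries were below every WT library, and the WT mean was 8.30 times the CFAP20-KO mean. Set against the first 2 kb of the gene, the upstream signal was 2.35%, 6.17% and 5.65% in WT and 0.258%, 0.516% and 0.758% in CFAP20-KO. WT replicate 2 was the lowest WT library in the upstream signal of EPHA2, as in its body signal. This share was highest in that library, but it divides by the first 2 kb, where WT replicate 2 was also the lowest. The share therefore cannot show whether the level was low. On the log2 scale the upstream-to-start ratio of EPHA2 differed by -3.07 ± 0.74 (SE), by -3.05 within the first run and -2.99 within the third. It was the lowest of the 785 genes with upstream signal. Over those genes the groups did not overlap with CFAP20-KO lower in 8.41% for the ratio and 10.7% for the upstream signal itself. The same limma fit as for body signal called 0 of the 785 ratios in either direction (1 without WT replicate 1), with 56 at an unadjusted p under 0.05.

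In ADGRG6 the 1 kb before the start held 4.62, 1.26 and 7.09 in WT replicates 1 to 3 and 0.393, 0.256 and 0.396 in CFAP20-KO replicates 1 to 3, again without overlap. The WT mean was 12.4 times the CFAP20-KO mean. The first 2 kb of ADGRG6 were also lower, and the groups overlapped in its upstream-to-start ratio, whose difference was -1.39 ± 0.66 (SE), with -0.18 in the first run and -2.68 in the third, and -2.09 without CFAP20-KO replicate 1. In CFAP20-KO replicate 1 each of the 3 ADGRG6 bins centred from -906 to -506 bases held 0.393, which is 1 step of that library. EPHB2, ADGRL4 and CLMP had next to nothing in the same region, with a mean of at most 0.147 in any library. Outside this region CLMP held up to 1.98 in bins centred from -2453 to -2053 bases. The CLMP bin centred at -53 bases, which reaches the start, held 0.393 to 4.29 and was left out of the region.

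In the bins shown above, the EPHA2 signal was 10.8, 3.89 and 15.5 in WT replicates 1 to 3 and 1.57, 0.960 and 1.44 in CFAP20-KO replicates 1 to 3. The ADGRG6 bin held 9.30, 1.32 and 10.1 in WT and 0.393, 0 and 0.540 in CFAP20-KO. In the ADGRG6 bins centred at -1306 and -1106 bases all 6 libraries were at 0, so the signal formed a patch that was not joined to signal further upstream. GENCODE 44 places an antisense gene, EPHA2-AS1, at chr1:16155176-16158148 on the other strand, which spans the EPHA2 start and the patch, and none within 2 kb before the ADGRG6 start. Whether reads of EPHA2-AS1 were counted on the EPHA2 strand was not tested.

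**Figure D3:**
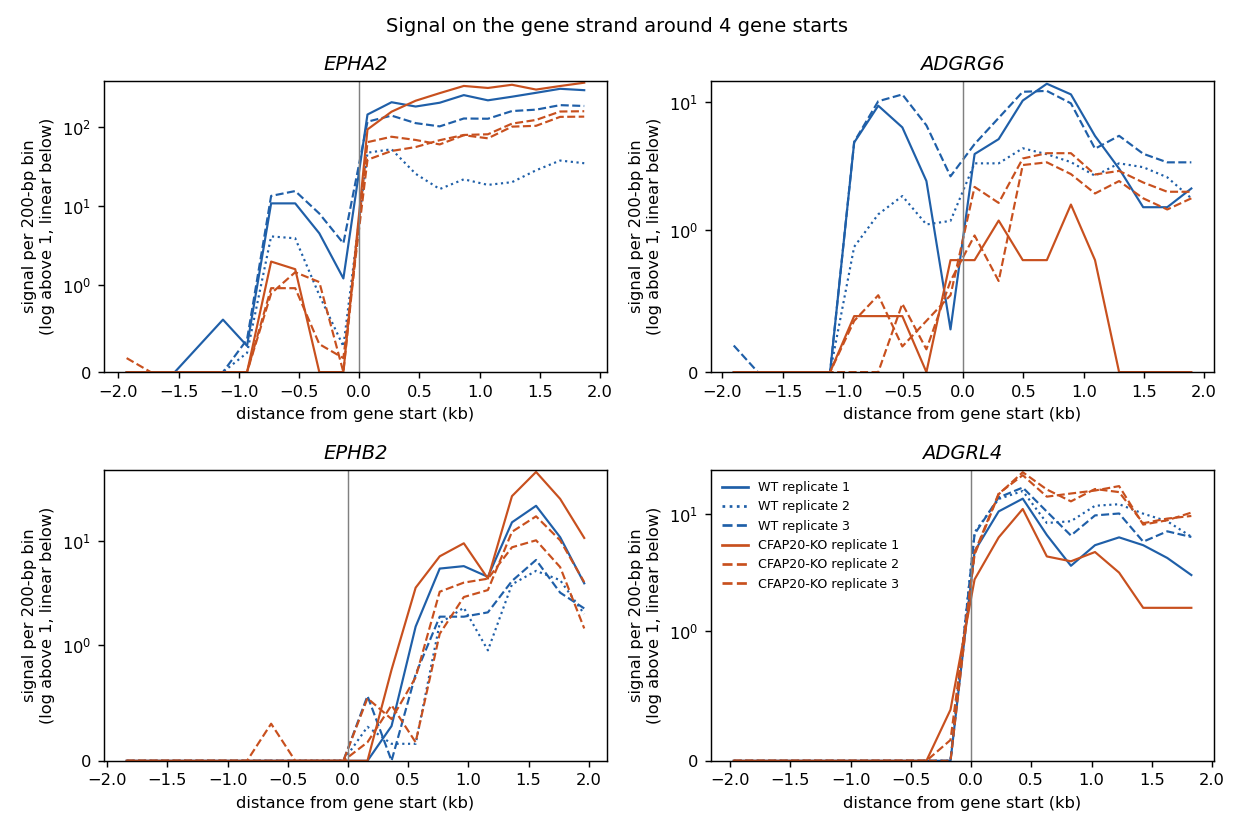
Signal per 200-bp bin on the gene strand from 2 kb before to 2 kb after the start of 4 genes, with a vertical axis that is linear below 1 and logarithmic above. Lines are single libraries, WT in blue and CFAP20-KO in orange. EPHA2 and ADGRG6 have a patch of WT signal before the start that is lower in all 3 CFAP20-KO libraries, and EPHB2 and ADGRL4 have none.

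Splicing could be followed in EPHA2 alone: the deposited table held 15 EPHA2 introns and 0 of the other 4 genes. The splice index is a fraction from 0 to 1 per intron, and the reads behind it are unknown. Among the 14 of them that belong to the canonical transcript, the WT mean was lowest in introns 2 and 1 (0.413 and 0.431) and highest in introns 13 and 9 (0.944 and 0.937). In CFAP20-KO libraries intron 1, of 4884 bases, had an index of 0.35 ± 0.151 (SD, n = 3), where the SD in WT was 0.165. Intron 9, of 253 bases, had 0.948 ± 0.012 (SD, n = 3) in CFAP20-KO and an SD of 0.0041 in WT. The median over the 15 introns was 0.874, 0.835 and 0.880 in WT replicates 1 to 3 and 0.847, 0.812 and 0.782 in CFAP20-KO replicates 1 to 3, with 0.846 in the rescue. The index was higher in CFAP20-KO for 8 introns and lower for 7, with a median difference of 0.0019, and that over all 6537 introns was 0.

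Intron 5 was the single EPHA2 intron whose groups did not overlap (1 of 15, where 11.1% of all introns did). Nothing is read from that count, and intron 5 is shown because it was picked by it. This intron of 2082 bases (chr1:16135771-16137852) had an index of 0.522, 0.571 and 0.517 in WT replicates 1 to 3 and 0.738, 0.650 and 0.651 in CFAP20-KO replicates 1 to 3. All 3 knockout values were higher, by 0.143 ± 0.067 (SE), and the rescue library, at 0.561, lay within the WT range. The rescue lay within the WT range in other EPHA2 introns too, and outside it in some, so its place is not particular to intron 5. The rescue differed by -0.010 from WT replicate 2, the WT library of its run. In limma 0 of 6537 introns were higher and 0 lower, with 373 at an unadjusted p under 0.05. The ends of this intron are shown beside those of intron 9, the one with the smallest WT spread, with capitals marking the first 2 and last 2 bases of the intron. Each donor run has 8 exon and 20 intron bases, and each acceptor run 24 intron and 8 exon bases, read from hg38 on the minus strand.
EPHA2 intron 5 donor, chr1:16137833-16137860: ccagacagGTgaggtccaggggtggcag
EPHA2 intron 5 acceptor, chr1:16135763-16135794: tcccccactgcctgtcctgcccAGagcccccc
EPHA2 intron 9 donor, chr1:16133840-16133867: caagtcagGTgagacgcagcccccgctc
EPHA2 intron 9 acceptor, chr1:16133599-16133630: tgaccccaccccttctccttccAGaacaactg

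All 15 EPHA2 introns start with GT and end with AG. Intron 5 has a GC content of 50.6% and intron 9 of 69.2%.

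**Figure D4:**
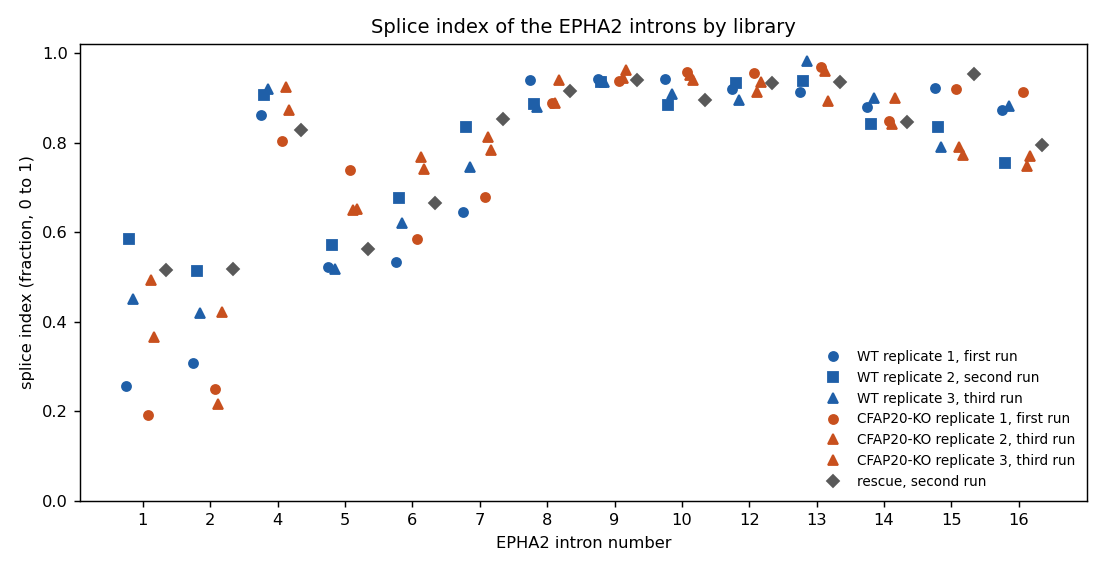
Splice index (fraction, 0 to 1) of the 14 introns of the canonical EPHA2 transcript that the table holds, by intron number. Blue points are WT, orange points CFAP20-KO and grey diamonds the rescue library, with marker shape giving the run. Intron 5 is the one where the 3 CFAP20-KO points, 0.650 to 0.738, lie above the 3 WT points, 0.517 to 0.571.

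The families to which these genes belong were described from lists. Of 14 Eph receptors 2 could be placed, EPHA2 and EPHB2, and of 8 ephrins none. Of 26 Eph signalling partners 7 could be placed: 0 passed limma in either direction, 5 had a higher and 2 a lower mean log2 signal, and their median change was 0.24 against 0.17 over all genes. SRC, the kinase that Eph receptors engage, was at 8.35, 2.08 and 5.85 in WT replicates 1 to 3 and at 8.36, 3.42 and 3.11 in CFAP20-KO replicates 1 to 3, a change of -0.06 ± 0.57 (SE). As in EPHA2, WT replicate 2 was the lowest of these SRC values. The change was -0.05 ± 0.36 (SE) for RASA1, a Ras GTPase-activating protein, and 0.19 ± 0.26 (SE) for NCK1, an adaptor to the actin machinery.

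Of 32 adhesion receptor genes 6 could be placed, 3 with a higher and 3 with a lower mean, and the median change was 0.03. Besides ADGRG6, the groups did not overlap for ADGRV1, a very large receptor known from the inner ear and retina. ADGRV1 was at 1.16, 2.13 and 0.897 in WT replicates 1 to 3 and at 0.192, 0.369 and 0.366 in CFAP20-KO replicates 1 to 3, a change of -1.86 ± 0.38 (SE) with an adjusted p of 0.27 in limma. With the run as a term, ADGRV1 passed (change -1.57, adjusted p = 0.037 in limma), as did 4.73% of all genes as lower and 6.39% as higher. CELSR2, a cadherin-type receptor of planar cell polarity, was at 2.74, 0.430 and 1.76 in WT replicates 1 to 3 and at 3.09, 1.23 and 1.1 in CFAP20-KO replicates 1 to 3, with a change of 0.29 ± 0.66 (SE).

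The other placed member of the immunoglobulin junction family of CLMP was JAM2, a junctional adhesion molecule, out of 11 on the list. JAM2 was at 0.377, 0.723 and 0.498 in WT replicates 1 to 3 and at 0.540, 0.905 and 0.887 in CFAP20-KO replicates 1 to 3, and its change of 0.49 ± 0.33 (SE) had an adjusted p of 0.80 in limma. The JAM2 groups overlapped, unlike those of CLMP. Of 40 tight junction, adherens junction and desmosome genes 7 could be placed, 4 with a higher and 3 with a lower mean and 0 past the limma threshold, and their median change was 0.24. The 3 with the most WT signal were the claudin CLDN12 (change -0.34 ± 0.31, SE), the scaffold TJP1 (0.24 ± 0.36, SE) and the desmosomal cadherin DSG2 (-0.15 ± 0.37, SE).

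For each gene, the other located genes were ranked by the Pearson correlation of log2 signal over the 6 libraries, which share depth and run and are few, so the values are a description. The 3 most like EPHA2 were SIRT6, STOML1 and E2F2, each at r = 0.998 or more, and 159 of 1753 genes had r of at least 0.9. The most like EPHB2 were MPRIP (r = 0.996), IFNGR2 (0.992) and CDK12 (0.983), with 78 genes at 0.9 or more. ADGRG6 was most like CTSO (r = 0.997), EZH2 (0.992) and PHKA1 (0.990), with 58 such genes. ADGRL4 was most like SP3 (r = 0.999), TMEM131 (0.998) and HYCC1 (0.998), with 355 such genes, the most of the 5. CLMP was most like TEX2 (r = 0.993), ARHGAP35 (0.992) and FAM171A1 (0.992), with 63 such genes. In ARHGAP35, the gene of a GTPase-activating protein, the signal was 3.59, 5.47 and 3.74 in WT replicates 1 to 3 and 7.59, 6.52 and 6.52 in CFAP20-KO replicates 1 to 3, the order seen in CLMP.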

How the data were processed

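BrU-seq libraries of 3 WT, 3 CFAP20-KO and 1 rescue sample were used. Gene values came from deposited tables of signal, that is coverage in bins of 200 bp around 2040 origins of DNA replication (2032 of them in all 6 tables). The authors scaled them per library, and no source used here gives the reference. For 6709 introns a deposited table gives a splice index, which is a fraction. The submitters' processing notes name SAMtools 1.11, STAR 2.7.7a, HOMER 4.8.2, Trim Galore 0.6.5, FastQC 0.11.9 and R 4.0.5, and the build hg38. The rescue library was analysed for splicing only, and the 7 tables around start sites, whose transcript identifiers carry no gene names, were not used here.

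Canonical GENCODE 44 transcripts of over 3 kb were kept where their strand held no other coding gene within 2 kb, and were placed in same-strand windows covering 10 to 100 kb of the body, or all of it if shorter, which located 2079 of 14857 genes. Genes with a mean of at least the pseudocount (0.0835, the 10th percentile of non-zero values) were tested, 1754 in all. Changes are differences of log2(signal + pseudocount), which understates changes of low genes. Ratios used genes of at least 10 kb. Limma 3.58.1 (trend, robust, statmod 1.5.0, R 4.3.3) compared 3 with 3 libraries at a Benjamini-Hochberg adjusted p of 0.05, and was tested on simulated data. Signal is a scaled coverage whose reads are unknown, so no counting interval was computed. Plots and summaries used Python 3.11.15 with pandas 2.3.3.

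The 5 genes and the lists were chosen with earlier results of these data known. Named genes were these 5, the 3 genes most like each, and up to 3 genes of each list with the most WT signal. Whether equal replicate numbers pair libraries was checked by the correlation of their deviations from group means. It was 0.83, 0.58 and 0.04 for body signal and 0.24, 0.05 and 0.14 for the upstream ratio, which does not pair them. In the splice index (0.51, 0.21 and 0.21) and the start-to-body ratio (0.59, 0.24 and 0.22) every pair exceeded 0.1. Deviations within a group cancel out, so the 3 correlations of a measure are tied to each other. WT and CFAP20-KO replicate 2 also do not share a run. These values therefore cannot show that equal replicate numbers pair libraries, and the labels give no pairing. Alternatives were other pseudocounts, no filter, a replicate block, a run term, centred libraries, other region limits and leaving out single libraries. A further list of cell type markers is not reported here.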

Additional observations from a re-analysis of the deposited data

Results flagged for a closer look

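ADGRL4 body signal moved in opposite directions in the 2 runs that hold both groups. In the first run CFAP20-KO replicate 1 (0.898) was below WT replicate 1 (1.32), and in the third CFAP20-KO replicates 2 and 3 (3.63 and 4.11) were above WT replicate 3 (2.03). The 2 within-run changes lay 1.42 apart on the log2 scale. The difference was not tested, and 37.5% of the 1754 genes had opposite directions in these runs.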

How the results depend on the processing

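Run and replicate number partly coincide in these libraries, and WT replicate 2 was alone in its run for gene signal. With the run as a term the body fit called 112 genes higher and 83 lower, with the replicate block 96 and 68, and with the run and centred libraries 43 and 119 (the last was added after seeing the data), where the planned fit called 0 and 0. For the start-to-body ratio the run term gave 11 higher and 285 lower and the block 2 and 3. The replicate block changed no call for the splice index or the upstream ratio (0 in each direction) and left each member's change as it was, since it moves only the error. Leaving out single libraries gave 0 calls for body, start-to-body and splice fits. For the upstream ratio it gave 0 to 1 lower, the 1 arising without WT replicate 1.

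EPHA2 body signal turned to -0.42 with the run term, -0.62 with the run and centring, -0.53 without WT replicate 2 and -0.068 without CFAP20-KO replicate 1, and leaving out single libraries took it up to 0.70. That of ADGRL4 turned to -0.085 with CFAP20-KO replicates 2 and 3 averaged, and to -0.036, -0.041 and -0.13 without WT replicate 1 and CFAP20-KO replicates 2 and 3, against 0.92 without CFAP20-KO replicate 1. The start-to-body change of EPHA2 turned to -0.21 with a start region of 1 kb and -0.085 without CFAP20-KO replicate 1 (up to 0.34 without another library). That of EPHB2 turned to -0.47 with 1 kb, -0.00064 with a smaller pseudocount, -0.21 with the run term, -0.23 without WT replicate 2 and -0.10 without CFAP20-KO replicate 2 (up to 0.23 without another), and that of ADGRL4 to 0.044 with centring. At a boundary of 50 kb in place of 25 kb the share beyond it differed by 1.94 points for EPHB2 (from -2.29), -0.53 for ADGRG6 (from 4.52) and 1.22 for ADGRL4 (from 3.19). Leaving out single libraries moved this difference between -8.16 and 4.70 points for EPHB2, 3.77 and 12 for CLMP, 3.03 and 6.84 for ADGRG6, 2.38 and 4.22 for ADGRL4 and 1.29 and 5.38 for EPHA2. The cause of these changes was not tested. CLMP, EPHB2 and ADGRG6 body changes and the EPHA2 upstream and intron 5 changes kept their direction in every setting run. For all of these but EPHB2 the groups did not overlap. Leaving out or averaging libraries, other pseudocounts, the block and the run term could therefore not turn their sign. Without CFAP20-KO replicate 1 the body change of EPHB2 fell from 0.99 to 0.46 and that of ADGRG6 went from -1.11 to -0.50.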

Other observations

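Among the placed junction genes, 3 were picked out after their values had been seen. PKP2, the desmosomal plakophilin 2, was at 1.84, 3.05 and 1.42 in WT replicates 1 to 3 and at 1.24, 1.18 and 1.2 in CFAP20-KO replicates 1 to 3, all lower. The PKP2 change of -0.69 ± 0.33 (SE) became -0.37 with the run as a term (adjusted p = 0.14 in limma). CGNL1, the junction protein paracingulin, was weak, at 0.1, 0.147 and 0.139 against 0.259, 0.250 and 0.185, all higher. Its change of 0.57 ± 0.26 (SE) became 0.63 with the run as a term (adjusted p = 0.11 in limma). The scaffold gene MAGI1 was at 1.03, 2.62 and 0.771 against 2.63, 1.69 and 1.75, with overlapping groups and a change of 0.59 ± 0.45 (SE) that became 1.16 with the run as a term (adjusted p = 0.029 in limma). Over all 1754 genes the groups were apart as higher in 12.8% and as lower in 4.85%, and 6.39% passed as higher with the run as a term.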
